A study of Homo sapiens with 46 samples.

Results

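Microexons are the shortest cassette exons, and here they were taken as all cassette exon events in the splicing tables whose alternative exon was 30 bases long or less. The 4 tables together held 2883 such events, which came from 1634 distinct exons in 1357 genes, among 217062 cassette events from 113686 distinct cassette exons. Length alone set membership, with no use of inclusion or its response to treatment. The set itself was chosen with earlier results of these data known. Inclusion is given as percent spliced in (PSI), from 0 to 1. It belongs to 1 event with given flanking exons, and is the fraction with the exon among transcripts that include or skip it there.

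The series measured RNA from 46 samples in 14 groups to ask what lowering TRA2B does to expression and splicing. MDA-MB-231, a triple-negative breast cancer cell line, and U87MG, a glioblastoma cell line, were given the antisense oligonucleotide ASO-1570, which targets TRA2B, or a control antisense oligonucleotide, each at 200 nM in one experiment and 50 nM in another. A further experiment used 10 nM of siRNA, either aimed at TRA2B or a control, in both lines, and RNA was taken 48 h after transfection, with 3 libraries in each of these 12 groups. Tumours of a breast cancer patient-derived xenograft (PDX) were injected with ASO-1570 or control oligonucleotide at 50 mg/kg, 3 times a week for 4 weeks, with 5 tumours per group in mice that the labels describe as immunocompetent. In the labels of the 50 nM and siRNA experiments the cell type of MDA-MB-231 is given as glioblastoma, against the titles and the named cell line, which were followed here.

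Microexons are so short that the splice sites at both ends lie almost on top of each other, and their recognition depends strongly on enhancer and silencer sequences in the exon and the introns beside it. The best known ones are included in neurons under SRRM4 and SRRM3, related proteins that are scarce in most tissues outside the nervous system, and are held back elsewhere by PTBP1. Most insert or remove a few amino acids at the surface of a protein without shifting the reading frame. TRA2B and its paralogue TRA2A are SR-like proteins that bind GAA-rich RNA and favour exon inclusion.

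The sequences below are of some of the microexons named in the results, in the spliced transcript from 5′ to 3′. The microexon is in capitals, with the last 12 bases of the exon before it and the first 12 of the exon after it in lower case. They are shown because they let the length, the reading frame and the GAA content of these exons be read directly. The first 7 are exons whose inclusion was lower after ASO-1570 in at least 1 cell line, and the last 5 are exons whose inclusion was higher. All were read from GENCODE 29 transcripts (GRCh38).
AFDN: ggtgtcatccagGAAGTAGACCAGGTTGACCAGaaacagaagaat
MARK3: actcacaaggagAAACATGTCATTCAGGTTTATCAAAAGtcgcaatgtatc
TRIM25: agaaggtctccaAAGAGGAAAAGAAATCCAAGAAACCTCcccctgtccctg
BAZ2B: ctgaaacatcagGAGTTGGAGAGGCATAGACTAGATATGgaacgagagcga
NECAP1: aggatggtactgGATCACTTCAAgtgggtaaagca
SMARCB1: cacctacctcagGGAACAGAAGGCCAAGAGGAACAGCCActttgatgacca
ABLIM3: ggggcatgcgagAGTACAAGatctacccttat
PTPRS: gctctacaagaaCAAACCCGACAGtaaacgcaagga
PPP3CB: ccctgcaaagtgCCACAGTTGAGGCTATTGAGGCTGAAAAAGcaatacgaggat
DNM2: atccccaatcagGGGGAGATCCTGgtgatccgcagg
MON2: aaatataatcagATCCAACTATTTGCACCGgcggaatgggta
MYO6: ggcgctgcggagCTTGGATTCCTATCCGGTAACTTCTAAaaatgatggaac

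The 1634 microexons were 3 to 30 bases long, and 959 of them (58.7%) had a length that is a multiple of 3. The commonest lengths were 27 bases with 212 exons, 30 bases with 205, 24 bases with 132 and 21 bases with 107, and 19 exons had only 3 bases. By the GENCODE annotation 1287 exons (78.8%) lay wholly within coding sequence of at least 1 transcript, 57 were partly coding, 108 lay in untranslated regions, 156 occurred in noncoding transcripts only and 26 were not annotated. For 989 exons (60.5%) the tables held 1 event, and the exon with the most had 22 events that differed in the flanking exons. Of all microexons, 687 were in all 4 tables.

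**Figure D1:**
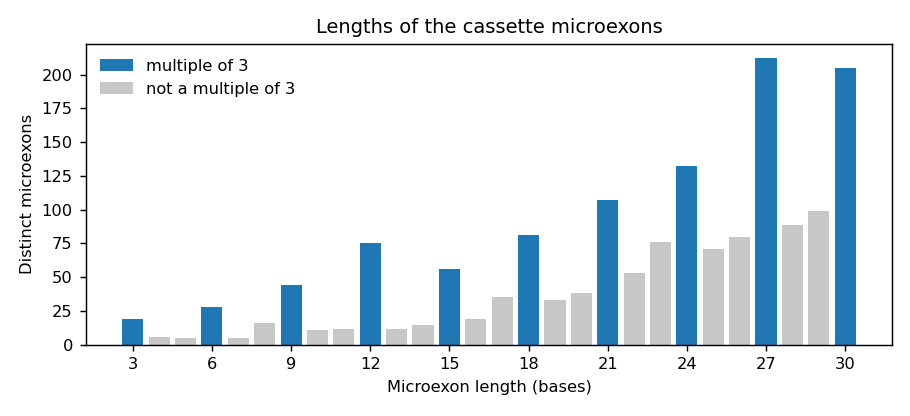
Number of distinct microexons (vertical axis) at each exon length in bases (horizontal axis), blue where the length is a multiple of 3 and grey where it is not. Every blue bar stands above the grey bars beside it, and the tallest are 27 bases with 212 exons and 30 bases with 205.

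In control cells most microexons were either nearly always included or nearly always skipped. In the 200 nM experiment 1002 microexons had a value in every control and treated U87MG library. Of these, 26.5% had a mean control PSI below 0.1 and 46% above 0.9, which left 27.4% in between. In MDA-MB-231 the same shares were 26.7%, 43.2% and 30.1% of 1005 exons chosen in the same way. In the PDX control tumours 30.5% were below 0.1 and 46.5% above 0.9, of 663 exons with a value in every control and treated tumour.

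Libraries of the 200 nM experiment held gene counts of 259.9 M to 356.8 M, and all others 75 M to 112.8 M. TRA2B fell in each cell line comparison (edgeR quasi-likelihood test, Benjamini-Hochberg adjusted). Scaled to library size (CPM) at 200 nM, the means without and with ASO-1570 were 198 and 109 in MDA-MB-231 (edgeR adjusted p = 6.89e-06) and 157 and 76.7 in U87MG (edgeR adjusted p = 3.84e-07). With siRNA they were 192 and 22.2 in MDA-MB-231 and 181 and 25.5 in U87MG (edgeR adjusted p = 8.55e-10 and 2.3e-09), and in the PDX 106 and 94.6 (edgeR adjusted p = 0.707). In bulk samples such as these, fewer cells of a type and less RNA per cell cannot be told apart. Mammary epithelial markers summed to 1420 to 4090 CPM in the MDA-MB-231 libraries and 1830 to 4190 in the PDX, against 10.3 to 16.2 in U87MG, and KRT5 and PGR in MDA-MB-231 and ESR1 and PGR in the PDX were near 0 in every group. In U87MG, AQP4, OLIG1 and SOX2 were near 0, and the 8 glial markers summed to 65.9 to 76.1 CPM in the ASO controls and 36.4 to 46.1 after ASO-1570. The glial markers summed to 31.9 to 61.4 CPM in the MDA-MB-231 libraries. Immune markers in U87MG summed to 389 to 550 CPM in the ASO controls and 293 to 428 CPM after ASO-1570. Only 1 of these 5 markers reached 1 CPM in the ASO controls, and CD3E and LYZ were near 0 in every U87MG group. Mammary markers in MDA-MB-231 at 200 nM summed to 2540 to 2810 CPM in the controls and 2990 to 4090 CPM after ASO-1570. The part of these shifts in the splicing results was not tested.

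ASO-1570 changed the inclusion of many microexons in U87MG and of few in MDA-MB-231, and about 3 in 4 of the calls were decreases. An event was tested when it had a PSI in every library of both groups and varied by at least 0.05, and a call needed a limma adjusted p (Benjamini-Hochberg over all splicing events) below 0.05 with a difference of mean PSI of 0.10 or more. In U87MG at 200 nM, 909 microexon events were tested and 160 (17.6%) were called, 120 lower and 40 higher, against 19.6% of all splicing events. In MDA-MB-231 at 200 nM, 25 of 786 (3.18%) were called, 18 lower and 7 higher, against 1.42% of all events. At 50 nM, 103 of 790 (13%) were called in U87MG, 78 lower and 25 higher, against 13.8% of all events, and 4 of 672 (0.595%) in MDA-MB-231, against 0.199%. The shares in U87MG were near those of all events and so are no property of microexons. Decreases made up 14.1% of all events in U87MG and 1.03% in MDA-MB-231 at 200 nM and increases 5.46% and 0.394%. At 50 nM decreases were 9.94% and 0.122% and increases 3.83% and 0.0766%.

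Counting instead the events whose groups did not overlap and differed by 0.10 or more, with no model, gave 199 microexon events in U87MG at 200 nM (21.9%, against 23.7% of all events) and 102 in MDA-MB-231 (13%, against 9.81%). The same count at 50 nM was 150 in U87MG (19%, against 20.1%) and 82 in MDA-MB-231 (12.2%, against 7.78%). With siRNA it was 34 in U87MG (4.72%, against 3.83%) and 32 in MDA-MB-231 (4.43%, against 4.18%), and in the PDX 1 (0.183%, against 0.326%).

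The median PSI difference of the tested microexon events was -0.033 in U87MG and -0.018 in MDA-MB-231 at 200 nM, and -0.027 and -0.015 over all events. At 50 nM it was -0.029 in U87MG and -0.018 in MDA-MB-231, beside -0.024 and -0.008 over all events. The number of calls in MDA-MB-231 rested on single libraries. At 200 nM it was 40 without treated library 3 and 4, 3 and 3 without control libraries 1, 2 and 3, and 5 and 4 without treated libraries 1 and 2. With 50 nM it was 17 without treated library 3, and 0 or 1 without any other library. Treated library 3 had the highest TRA2B level of its group in both experiments, 116 CPM beside 104 and 106 at 200 nM and 147 beside 119 and 122 at 50 nM. Its part in the number of calls was not tested. In U87MG at 50 nM the calls were 44, 49 and 49 without control libraries 1, 2 and 3.

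**Figure D2:**
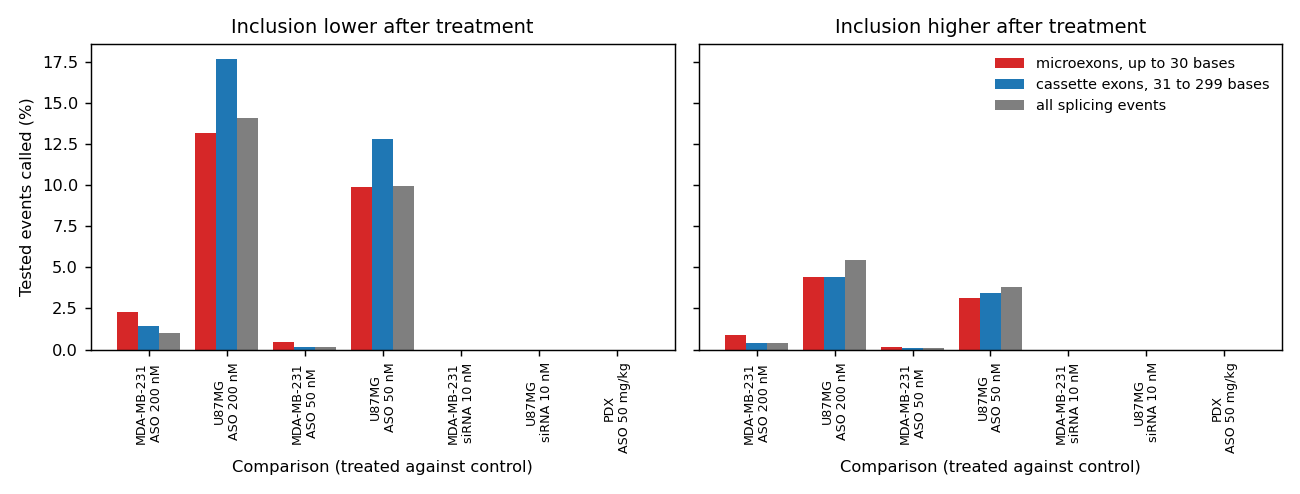
Percent of tested events (vertical axis) called lower (left) or higher (right) after treatment in each of the 7 comparisons (horizontal axis), for microexons (red), longer cassette exons within the bounds in the legend (blue) and all splicing events (grey). In U87MG at 200 nM the bars for decreases are 13.2% of microexon events, 17.7% of longer cassette events and 14.1% of all events, and there are no bars for siRNA or the PDX.

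Where the tables list several events for an exon, 1 event stands for it below. Counted in this way, 114 of 604 tested microexons were called in U87MG at 200 nM (31 higher, 83 lower) and 17 of 538 in MDA-MB-231 (6 higher, 11 lower). The 50 nM experiment gave 82 of 557 in U87MG (20 higher, 62 lower) and 2 of 478 in MDA-MB-231, both lower. By any event, 140 exons were called in U87MG and 22 in MDA-MB-231 at 200 nM, and 94 and 4 at 50 nM. Of the 140, 1 exon had events called in both directions. Only 1049 of the 1634 microexons were tested in any comparison and 114 in all 7, so the counts do not speak for the rest.

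The microexons of AFDN and MARK3 fell in all 4 comparisons with ASO-1570, and by the event standing for each exon no other microexon was called in both lines at both doses. AFDN encodes afadin, which ties nectins to the actin cytoskeleton at cell junctions. Its 21-base exon (chr6:167913403-167913423, plus strand) is coding, and its PSI in MDA-MB-231 at 200 nM was 0.643, 0.595 and 0.629 in the controls and 0.187, 0.217 and 0.207 after ASO-1570. The difference was -0.419 (limma adjusted p = 0.00326). In U87MG the control libraries had 0.573, 0.593 and 0.612 and the treated libraries 0.347, 0.274 and 0.264, a difference of -0.298 (limma adjusted p = 0.00222). No treated library reached a control library in either line, and the drop was 0.121 larger in MDA-MB-231 (limma interaction, adjusted p = 0.0426). At 50 nM the mean went from 0.580 ± 0.016 to 0.253 ± 0.054 in MDA-MB-231 (SD, n = 3; limma adjusted p = 0.0452) and from 0.556 ± 0.009 to 0.312 ± 0.014 in U87MG (SD, n = 3; limma adjusted p = 0.0029). At 200 nM the AFDN transcript itself fell, in U87MG from 104 to 65.6 CPM and in MDA-MB-231 from 200 to 161 CPM (edgeR adjusted p = 1.4e-05 and 0.00801).

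MARK3 is a kinase that phosphorylates microtubule-associated proteins and takes part in cell polarity. Its 27-base coding exon (chr14:103498502-103498528, plus strand) had a PSI of 0.594, 0.619 and 0.587 in the MDA-MB-231 controls and 0.161, 0.17 and 0.222 after 200 nM. In U87MG it was 0.614, 0.590 and 0.608 in the controls and 0.240, 0.241 and 0.257 after treatment. The differences were -0.416 (limma adjusted p = 0.00482) and -0.358 (limma adjusted p = 0.000425), with 3 of 3 treated libraries below all controls in each line. At 50 nM the differences were -0.373 in MDA-MB-231 (limma adjusted p = 0.0358) and -0.318 in U87MG (limma adjusted p = 0.00234). The level of MARK3 was not called at 200 nM in either line, at 94.7 and 87.7 CPM in MDA-MB-231 and 92.5 and 91.4 in U87MG (edgeR adjusted p = 0.144 and 0.807). In MDA-MB-231 at 50 nM, the AFDN and MARK3 calls were lost without any 1 library other than treated library 3.

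**Figure D3:**
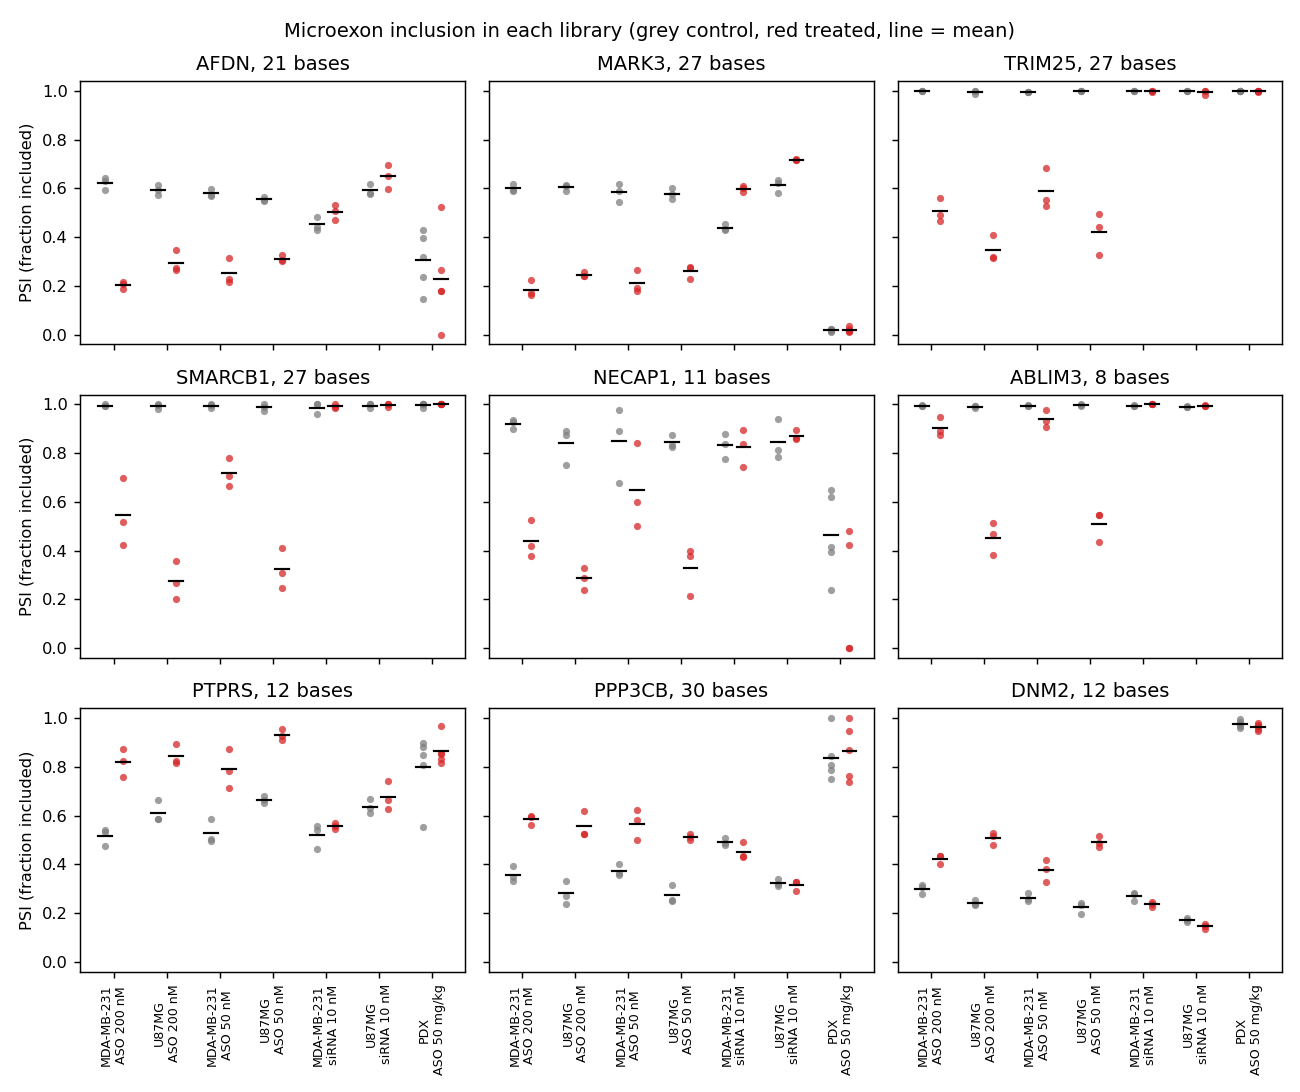
PSI (vertical axis, 0 to 1) of 9 microexons in each library, control in grey and treated in red with a line at the mean of each group whose libraries all have a value, for the 7 comparisons (horizontal axis). AFDN and MARK3 start near 0.6 and end near 0.2 to 0.3 with ASO-1570 in both lines, while PTPRS, PPP3CB and DNM2 move upward and the siRNA groups stay close to their controls except for MARK3.

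TRIM25, NECAP1, BAZ2B and CORO1C also lost inclusion in both lines at 200 nM. TRIM25 is a ubiquitin ligase of antiviral signalling. Its 27-base coding exon (chr17:56895926-56895952, minus strand) was included in every control transcript counted in MDA-MB-231, with a PSI of 1 in each control library, and had 0.467, 0.492 and 0.560 after 200 nM (difference -0.494, limma adjusted p = 0.0105). In U87MG the controls had 1, 0.987 and 1 and the treated libraries 0.409, 0.319 and 0.313 (difference -0.649, limma adjusted p = 0.00051). No treated library reached a control library in either line. At 50 nM the U87MG mean was 0.421 ± 0.087 against 1 (SD, n = 3; limma adjusted p = 0.00293), and the MDA-MB-231 mean was 0.589 ± 0.084 against 0.997 (SD, n = 3), which was not called (limma adjusted p = 0.067). The TRIM25 exon holds 3 GAA, as its sequence shows.

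NECAP1, a partner of the clathrin adaptor, has an 11-base exon (chr12:8091840-8091850, plus strand) that shifts the frame and is annotated as coding only in a transcript that is not of the protein-coding class. In MDA-MB-231 at 200 nM its PSI was 0.899, 0.927 and 0.938 in the controls and 0.419, 0.378 and 0.527 after treatment (difference -0.480, limma adjusted p = 0.0195). In U87MG it was 0.752, 0.875 and 0.893, then 0.330, 0.240 and 0.290 (difference -0.553, limma adjusted p = 0.00158). The groups were apart in both lines. BAZ2B, a bromodomain chromatin protein, went in its 27-base coding exon (chr2:159397074-159397100, minus strand) from 0.882, 0.838 and 0.824 to 0.499, 0.547 and 0.562 in MDA-MB-231 (difference -0.312, limma adjusted p = 0.0284). In U87MG it went from 0.907, 0.907 and 0.889 to 0.448, 0.49 and 0.384 (difference -0.459, limma adjusted p = 0.00126), while the level of BAZ2B was not called in either line, at 26.2 and 26.9 CPM and at 23.0 and 24.1 CPM (edgeR adjusted p = 0.743 and 0.407). CORO1C, an actin-binding coronin, has a 23-base exon found in noncoding transcripts only, whose mean PSI went from 0.985 to 0.313 in MDA-MB-231 (limma adjusted p = 0.0457) and from 0.914 to 0.035 in U87MG (limma adjusted p = 0.00153).

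These MDA-MB-231 calls at 200 nM were less stable than those in U87MG. Without any 1 of control libraries 1 to 3 or treated libraries 1 and 2, the calls of NECAP1, BAZ2B and CORO1C in MDA-MB-231 were lost, with the differences keeping their sign, and the TRIM25 call was lost without any 1 of the controls or without treated library 2. The AFDN and MARK3 calls at 200 nM held in MDA-MB-231 and in U87MG without any 1 library.

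The largest decreases in U87MG included SMARCB1, a core subunit of the SWI/SNF chromatin remodelling complex. Its 27-base coding exon (chr22:23800944-23800970, plus strand) had a PSI of 0.983, 1 and 0.998 in the U87MG controls and 0.358, 0.202 and 0.268 after 200 nM, a difference of -0.718 (limma adjusted p = 0.000716). At 50 nM the mean went from 0.988 ± 0.014 to 0.324 ± 0.083 (SD, n = 3; limma adjusted p = 0.00196). SMARCB1 transcripts fell in U87MG at 200 nM, from 61.6 ± 2.01 to 37.4 ± 2.35 CPM (SD, n = 3; log2 change -0.72, edgeR adjusted p = 1.14e-05). In MDA-MB-231 the exon went from 1, 0.992 and 0.993 to 0.516, 0.423 and 0.698, with no overlap between groups, but the call was missed (difference -0.449, limma adjusted p = 0.0566), and the transcript level was 78.6 against 77.1 CPM (edgeR adjusted p = 0.85). Like the TRIM25 exon, this one holds 3 GAA. GAA also occurs in the falling exons of AFDN, NAA20, GRIPAP1, OTUD4 and S100PBP. The falling exons of MARK3, BAZ2B, NECAP1, CORO1C, ABLIM3, TAF1D, NAPG, LGALS1, CHI3L2, KIFC3 and ZNF615 hold none. Of the rising exons, those of FCF1, PPP3CB, DHX30, CD47, OSCP1 and GSDMB hold GAA. Those of PTPRS, DNM2, MON2, MYO6, ATP5PB, NBEA, GPATCH8 and SPIRE1 do not. The part of GAA in the response was not tested.

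The 8-base exon of ABLIM3 (chr5:149252201-149252208, plus strand), an actin-binding LIM protein, was nearly constitutive in both lines and responded unequally. Its PSI in U87MG at 200 nM was 0.987, 0.992 and 0.992 in the controls and 0.513, 0.382 and 0.467 after treatment (difference -0.536, limma adjusted p = 0.00115). The MDA-MB-231 libraries had 0.997, 0.994 and 0.995, then 0.875, 0.891 and 0.949 (difference -0.090, limma adjusted p = 0.155). The effects differed by 0.446 (limma interaction, adjusted p = 0.000669) at 200 nM and by 0.431 (limma interaction, adjusted p = 0.00197) at 50 nM. ABLIM3 transcripts fell in both lines at 200 nM, with 110 CPM in the U87MG controls and 61.2 after treatment (edgeR adjusted p = 2.19e-05), and 65.7 and 36.1 CPM in MDA-MB-231 (edgeR adjusted p = 0.000137).

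Several more exons that were mostly included in the U87MG controls fell there at both doses. TAF1D, a subunit of an RNA polymerase I initiation factor, had a PSI of 1 in all 3 controls and 0.542, 0.473 and 0.584 after 200 nM in its 15-base exon (limma adjusted p = 0.00124). NAA20, the catalytic subunit of the N-terminal acetyltransferase NatB, went from 0.911, 0.942 and 0.897 to 0.521, 0.486 and 0.516 in a 25-base exon (limma adjusted p = 0.000947). The deubiquitinase OTUD4 went from 0.794, 1 and 1 to 0.161, 0.154 and 0.075 in a 6-base exon found in noncoding transcripts only (limma adjusted p = 0.00138). In all 3 the groups were separate, and at 50 nM the means fell by 0.395, 0.377 and 0.849 (limma adjusted p = 0.00509, 0.0113 and 0.00331), though the NAA20 call at 50 nM was lost without any 1 control library. In MDA-MB-231 at 200 nM the differences were -0.182, -0.127 and -0.412, none of them called.

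NAPG, the gamma-SNAP of vesicle fusion, and GRIPAP1, a protein of recycling endosomes, were of the same kind. The 18-base NAPG exon went in U87MG at 200 nM from 0.827, 0.938 and 0.967 to 0.317, 0.171 and 0.066 (difference -0.726, limma adjusted p = 0.0024), and the 27-base GRIPAP1 exon from 0.946, 0.958 and 0.989 to 0.604, 0.511 and 0.671 (difference -0.369, limma adjusted p = 0.00439). Both fell again at 50 nM, by 0.672 and 0.421 (limma adjusted p = 0.0062 and 0.0024). The 17-base exon of LGALS1, which encodes galectin-1, had scattered U87MG controls of 0.267, 0.604 and 0.807 and was almost skipped after 200 nM, at 0.021, 0.010 and 0.007. Its call (difference -0.547, limma adjusted p = 0.0311) was lost without control library 2 or 3 or any 1 treated library, but at 50 nM the exon fell again, from 0.486 ± 0.078 to 0.009 ± 0.004 (SD, n = 3; limma adjusted p = 0.00284).

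The microexons with higher inclusion after ASO-1570 that are described next started from low or intermediate levels. PTPRS encodes a receptor tyrosine phosphatase of axon guidance, and its 12-base coding exon (chr19:5218787-5218798, minus strand) adds 4 codons. In MDA-MB-231 at 200 nM its PSI was 0.533, 0.477 and 0.540 in the controls and 0.822, 0.873 and 0.760 after treatment (difference 0.302, limma adjusted p = 0.0403). In U87MG it was 0.586, 0.662 and 0.587, then 0.823, 0.815 and 0.892 (difference 0.232, limma adjusted p = 0.00968). Treated and control libraries did not overlap in either line. The 50 nM rise was 0.265 in U87MG (limma adjusted p = 0.00546), and in MDA-MB-231 the difference was 0.261 (limma adjusted p = 0.171, not called). While its inclusion rose, PTPRS as a whole fell at 200 nM, with means of 33.7 and 17.5 CPM in U87MG (edgeR adjusted p = 0.000348) and 56.5 and 40.1 CPM in MDA-MB-231 (edgeR adjusted p = 0.0365).

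PPP3CB, a catalytic subunit of the phosphatase calcineurin, also had a rising exon and a falling transcript. Its 30-base coding exon (chr10:73439872-73439901, minus strand) went from 0.333, 0.350 and 0.392 to 0.596, 0.6 and 0.560 in MDA-MB-231 at 200 nM (difference 0.227, limma adjusted p = 0.028). In U87MG it went from 0.239, 0.332 and 0.272 to 0.53, 0.620 and 0.523 (difference 0.275, limma adjusted p = 0.00598), and at 50 nM by 0.238 (limma adjusted p = 0.00539). At 200 nM PPP3CB transcripts fell to 52.1 CPM from 87.2 in MDA-MB-231 and to 42.7 CPM from 83.9 in U87MG (edgeR adjusted p = 0.000946 and 3.22e-05). Of all genes, 13.6% were lower in MDA-MB-231 and 23.9% in U87MG at this dose. The transcripts of MON2, CD47 and MYO6, whose exons were also called higher in MDA-MB-231, were not called there (log2 changes -0.28, -0.03 and 0.09, edgeR adjusted p = 0.225, 0.845 and 0.347).

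DNM2 encodes dynamin 2, the GTPase that cuts endocytic vesicles from the membrane. Its 12-base coding exon (chr19:10808569-10808580, plus strand) had a PSI of 0.234, 0.238 and 0.253 in the U87MG controls and 0.479, 0.517 and 0.528 after 200 nM (difference 0.266, limma adjusted p = 0.00121). The MDA-MB-231 libraries had 0.315, 0.306 and 0.280, then 0.435, 0.436 and 0.4, a difference of 0.123 that was not called (limma adjusted p = 0.0638). The groups were apart in both lines, and the effects differed by 0.143 (limma interaction, adjusted p = 0.0053). At 50 nM the U87MG difference was 0.268 (limma adjusted p = 0.00312). The 29-base exon of DHX30, an RNA helicase of mitochondrial ribosome assembly, rose in U87MG from 0.231, 0.199 and 0.227 to 0.470, 0.541 and 0.462 at 200 nM (limma adjusted p = 0.00234). Its mean in MDA-MB-231 was 0.138 ± 0.013 in the controls and 0.2 ± 0.010 after treatment (SD, n = 3; limma adjusted p = 0.163, not called).

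The 18-base coding exon of MON2 (chr12:62566014-62566031, plus strand), a regulator of transport between Golgi and endosomes, rose from 0.269, 0.208 and 0.225 to 0.496, 0.491 and 0.427 in MDA-MB-231 at 200 nM (limma adjusted p = 0.0299). In U87MG it started higher, at 0.542, 0.548 and 0.510, and reached 0.623, 0.733 and 0.728 (limma adjusted p = 0.0295). Treated libraries were above all controls in both lines, and at 50 nM the U87MG rise was 0.189 (limma adjusted p = 0.0091). The exons of the motor protein MYO6 and of CD47, the cell surface signal against phagocytosis, were called higher in MDA-MB-231 and not in U87MG. The 27-base coding exon of MYO6 (chr6:75894814-75894840, plus strand) went from 0.293, 0.332 and 0.272 to 0.698, 0.533 and 0.619 (limma adjusted p = 0.0421), and the 25-base exon of CD47 from 0.186, 0.180 and 0.174 to 0.406, 0.419 and 0.359 (limma adjusted p = 0.0207). In U87MG the CD47 exon differed by 0.092 (limma adjusted p = 0.00445), under the 0.10 that a call required, from 0.022 to 0.114, and the MYO6 groups overlapped (limma adjusted p = 0.457). The MYO6 effects in the 2 lines were not called as different (0.231, limma interaction, adjusted p = 0.188).

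The MDA-MB-231 calls of PTPRS, PPP3CB, MON2 and CD47 at 200 nM were lost without any 1 of the control libraries or of treated libraries 1 and 2, and that of MYO6 without any 1 library. The U87MG call of MON2 at 200 nM was lost without any 1 control library or without treated library 2 or 3, and at 50 nM without any 1 control library. Those of PTPRS, PPP3CB and DNM2 held in U87MG at both doses, as did that of DHX30 at 200 nM. The DHX30 call at 50 nM was lost without control library 1 or 3.

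Some of the largest PSI differences came from exons with erratic values. A 28-base exon of S100PBP went in U87MG from 1 in each control to 0.144, 0.457 and 0 at 200 nM (limma adjusted p = 0.00641), but at 50 nM it had 1 in each treated library. The 18-base exon of GPATCH8 and the 28-base exon of SPIRE1, an actin nucleator, rose in U87MG at 200 nM by 0.577 and 0.572 (limma adjusted p = 0.0141 and 0.0175). At 50 nM their differences were -0.059 and -0.429 (limma adjusted p = 0.734 and 0.165), and the U87MG controls of the experiments did not match, with means of 0.222 and 0.939 for GPATCH8 and 0.304 and 1 for SPIRE1. The 23-base exon of FCF1, a ribosomal RNA processing factor, rose in U87MG at both doses, by 0.407 and 0.637 (limma adjusted p = 0.018 and 0.0276). Its U87MG control mean was 0.016 at 200 nM and 0.037 at 50 nM but 0.946 in the siRNA table. The GPATCH8, SPIRE1 and FCF1 calls were each lost without at least 1 control library. GPATCH8 lost its call without control 1 or 3, SPIRE1 without control 2 or 3 or treated 3, and FCF1 without any 1 control at both doses, without treated 1 at 200 nM and without treated 2 at 50 nM.

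Other exons called in U87MG had hosts of diverse function. The 30-base exon of CHI3L2, a chitinase-like secreted protein, fell from 0.796 ± 0.015 to 0.409 ± 0.054 at 200 nM (SD, n = 3; limma adjusted p = 0.00172), in a gene whose level rose from 8.13 to 38.0 CPM (edgeR adjusted p = 2.78e-05). In MDA-MB-231, where CHI3L2 was at 0.559 CPM, the exon's difference was 0.092 (limma adjusted p = 0.579). Its differences at 50 nM were -0.318 in U87MG (limma adjusted p = 0.0075) and -0.258 in MDA-MB-231 (limma adjusted p = 0.496, not called). The 29-base exon of the kinesin KIFC3 fell in U87MG at 50 nM by 0.437 (limma adjusted p = 0.0139, lost without control library 1 or 3), and its difference at 200 nM was -0.092 (limma adjusted p = 0.357). The 23-base exon of ATP5PB, a subunit of mitochondrial ATP synthase, rose from 0.099 ± 0.051 to 0.358 ± 0.029 at 200 nM (SD, n = 3; limma adjusted p = 0.00392). Its rise of 0.433 at 50 nM (limma adjusted p = 0.0485) was lost without any 1 control library or without treated library 1 or 2. Exons of OSCP1 and GSDMB rose at 200 nM by 0.463 and 0.417 (limma adjusted p = 0.0194 and 0.0192), and those of NBEA and ZNF615 changed at 50 nM by 0.345 and -0.634 (limma adjusted p = 0.0393 and 0.035). Each of these 4 calls was lost without at least 2 of the 6 libraries when left out 1 at a time: OSCP1 without control 2 or 3 or treated 1 or 2, GSDMB without control 1 or 3 or treated 2 or 3, NBEA without any control or treated 2 or 3, and ZNF615 without control 1 or 3 or treated 1 or 3.

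In MDA-MB-231 at 50 nM, 2 more microexons were called through an event other than the one standing for the exon, and they are named here after their values were seen. A 30-base exon of the noncoding gene GAS5, which hosts small nucleolar RNAs (chr1:173866177-173866206), went from 1 in each control to 0.555, 0.454 and 0.454 (limma adjusted p = 0.027). The event standing for the same exon had a difference of 0.677 in the opposite direction and was not called. A 25-base exon of ZBTB8OS, a cofactor of the tRNA ligase (chr1:32634768-32634792), went from 0.585, 0.491 and 0.517 to 0.983, 0.942 and 0.923 (limma adjusted p = 0.0449), while the event standing for it had a difference of -0.058 and was not called. No test compared the events of an exon with each other.

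The response differed between the lines for a minority of microexons, by a test of the difference itself. At 200 nM, 67 of 977 tested microexon events (6.86%) were called for a difference between the effects, against 8.08% of all events, and at 50 nM 32 of 834 (3.84%), against 4.9%. In 52 of the 67 and 28 of the 32 the effect in MDA-MB-231 minus that in U87MG was above 0. This split was not counted over all splicing events, so nothing particular to microexons can be read from it. Apart from those already given, the printed event was called at 200 nM for TAF1D (0.285, adjusted p = 0.00887), NAA20 (0.282, adjusted p = 0.00103), OTUD4 (0.390, adjusted p = 0.0271), CHI3L2 (0.479, adjusted p = 0.00512), CD47 (0.123, adjusted p = 0.00451), DHX30 (-0.210, adjusted p = 0.002) and GPATCH8 (-0.737, adjusted p = 0.0196), all by the limma interaction. Of these, the differences at 50 nM were not called for OTUD4 (0.688, limma interaction, adjusted p = 0.0693), CHI3L2 (0.060, adjusted p = 0.858), CD47 (0.088, adjusted p = 0.0738) and GPATCH8 (0.180, adjusted p = 0.653). SMARCB1 was called for a line difference at 50 nM (0.388, limma interaction, adjusted p = 0.0083) but not at 200 nM (0.268, adjusted p = 0.0827). The count at 200 nM was 44 without U87MG control library 2 and 43 without U87MG control library 3. For 50 nM it was 15, 13 and 14 without MDA-MB-231 control libraries 1, 2 and 3, 17 without MDA-MB-231 treated library 2, 20, 16 and 13 without U87MG control libraries 1, 2 and 3, and 62 without U87MG treated library 3.

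The exons called in U87MG at 200 nM moved the same way at 50 nM. Of 477 microexons tested at both doses, 100 were called at 200 nM and 81 at 50 nM, and 54 in both in the same direction, which is 54.0% of the first list and 66.7% of the second. The difference at 50 nM had the sign of that at 200 nM for 96 of the 100, and Pearson's r over the 477 exons was 0.73. The doses were run as separate experiments with their own controls, so dose and experiment cannot be told apart and the difference between them was not tested. Against MDA-MB-231 at 200 nM, 452 microexons were tested in both lines, with 93 called in U87MG and 16 in MDA-MB-231. The 13 called in both in the same direction are 14% of the first list and 81.2% of the second. Among the 93, 84 had the same sign in MDA-MB-231. Those that fell in U87MG had a median difference of -0.235 there and -0.121 in MDA-MB-231, and those that rose 0.222 and 0.057 (r = 0.55 over the 452). The points of each correlation share the exon and the caller's event definitions, and the exons are not independent replicates.

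No microexon was called with siRNA in either line, where TRA2B was at 22.2 and 25.5 CPM, against 76.2 to 129 CPM after ASO-1570 in tables that were normalised separately. With limma, 0 of 722 tested events were called in MDA-MB-231 and 0 of 721 in U87MG, and the share of all events called was 0% in both. At an unadjusted p below 0.05 there were 51 and 49 (7.06% and 6.8%, against 5.89% and 5.35% of all events), and the smallest adjusted p of a microexon was 0.314 and 0.168. With all 4 groups of the table in 1 limma fit, 3 and 4 microexon events were called, and 1 event was called in MDA-MB-231 without control library 2 and in U87MG without treated library 1. The median difference was -0.001 in MDA-MB-231 and 0.001 in U87MG. No microexon was called for a difference between the lines (0 of 631 by the limma interaction, 40 at an unadjusted p below 0.05, against 0.00571% of all events called), and 1 was called without MDA-MB-231 control library 2 or without U87MG treated library 3.

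Exons that answered the oligonucleotide were spread around 0 with the siRNA. Of the 74 microexons called in U87MG at 200 nM that were also tested with siRNA in U87MG, 33 had the same sign. The 51 that fell with the oligonucleotide had a median of -0.217 there and of 0.014 with siRNA, and the 23 that rose had 0.171 and 0.016. Only 9 of the 74 differed by 0.10 or more with siRNA, and 4 of these had the sign of the oligonucleotide. Over all 387 exons tested in both, r was -0.03. In MDA-MB-231, 7 of the 12 microexons called at 200 nM and tested with siRNA had the same sign. Oligonucleotide and siRNA were separate experiments, and the difference between them was not tested.

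**Figure D4:**
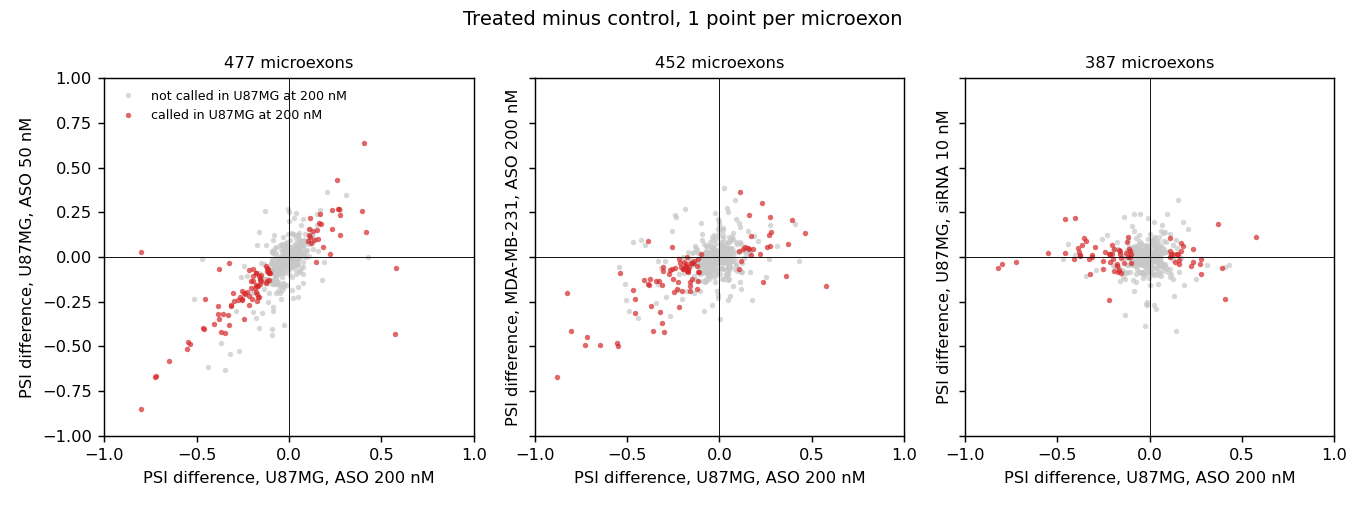
PSI difference, treated minus control, of each microexon in U87MG at 200 nM ASO-1570 (horizontal axis) against the difference in U87MG at 50 nM, in MDA-MB-231 at 200 nM and in U87MG with siRNA (vertical axes, left to right), with exons called in U87MG at 200 nM in red. The red points run along the diagonal on the left, lie flatter in the middle and spread around 0 on the right, where 33 of 74 share the sign.

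MARK3 differed in direction between the treatments. With siRNA its PSI was 0.431, 0.452 and 0.434 in the MDA-MB-231 controls and 0.610, 0.583 and 0.6 after treatment, a difference of 0.159. In U87MG it was 0.582, 0.633 and 0.623, then 0.716, 0.716 and 0.722, a difference of 0.105. The groups did not overlap in either line, but the fit across all events did not call them (limma adjusted p = 0.335 and 0.768), and the exact two-sided permutation p was 0.1 in each, the smallest that 3 against 3 libraries can give. The AFDN exon had differences of 0.050 and 0.058 with siRNA (limma adjusted p = 0.781 and 0.768). TRIM25, SMARCB1 and ABLIM3 varied too little across the siRNA libraries to be tested, with means of 0.987 to 1 in each of the siRNA groups.

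PTPRS, DNM2 and PPP3CB, which gained inclusion with the oligonucleotide, had siRNA differences of 0.039, -0.035 and -0.038 in MDA-MB-231 and of 0.043, -0.026 and -0.010 in U87MG, none of them called and DNM2 in U87MG too even to be tested. NECAP1 and BAZ2B, which lost it, had siRNA differences of -0.006 and 0.017 in MDA-MB-231 and 0.025 and 0.025 in U87MG. For these 5 exons the sizes with siRNA were below those with the oligonucleotide in these samples. The exons were named for their calls with the oligonucleotide, so the sizes are not compared on equal terms, and the difference was not tested.

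In the PDX, ASO-1570 called no microexon either. Of 546 tested events 0 were called with limma, as were 0% of all events, and 20 had an unadjusted p below 0.05 (3.66%, against 4.14% of all events). The median difference was 0.003 (0.005 over all events), and of 55 microexons called in U87MG at 200 nM and tested in the PDX, 24 had the same sign. Mitochondrial genes took 17.65% to 75.31% of the counts in the tumours (median 29.79% in control and 64.16% in treated tumours) against 1.73% to 3.16% in the cell lines. The part of this in the PDX result was not tested.

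Resting inclusion of several of these exons was different in the tumours. The MARK3 exon was almost skipped, with a PSI of 0.009, a median of 0.018 and 0.025 at most in control tumours, and BAZ2B had a mean of 0.096 ± 0.019 against 0.822 to 0.917 in the cell line controls (SD, n = 5). The DNM2 exon was almost always included, at 0.977 ± 0.014 in control and 0.964 ± 0.013 in treated tumours (SD, n = 5; limma adjusted p = 0.763). AFDN ranged from 0.147 to 0.429 in control tumours and from 0 to 0.523 in treated tumours, so the groups overlapped widely. The smallest exact two-sided permutation p for a named exon was 0.0556 for FNBP1, a membrane-bending protein with a 15-base exon, at 0.762 ± 0.17 in control and 0.305 ± 0.353 in treated tumours (SD, n = 5; limma adjusted p = 0.763).

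Genes that host microexons well known from neurons and muscle were looked at as a list of 62. Every microexon of these genes was counted, so the exons below need not be the well-known ones. Of these, 50 had a microexon in the tables (84 exons), and 46 exons of 30 genes were tested at least once. With 200 nM in U87MG 6 of 28 tested exons were called (19.6% of all events), 3 higher (PTPRS, MON2, MAP4K4) and 3 lower (among them ABI1 and a 3-base exon of CLASP1), with a median difference of -0.009 beside -0.027 over all events. At 50 nM 8 of 31 were called (13.8% of all events), 4 higher (PTPRS, MON2, MAP4K4, MYO18A) and 4 lower (among them ABI1, CLASP2 and CPEB2), with a median of 0.002. In MDA-MB-231 3 of 26 were called at 200 nM (1.42% of all events), all higher (PTPRS, MON2, PPFIA1), and 0 of 25 at 50 nM (0.199% of all events). With siRNA it was 0 of 23 in each line, and 0 of 20 in the PDX, where 0% of all events were called.

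The unannotated 3-base exon of CLASP2, which stabilises microtubule plus ends (chr3:33566732-33566734, minus strand), went in U87MG at 50 nM from 1, 0.797 and 0.567 to 0.065, 0.146 and 0.308 (limma adjusted p = 0.0242). That call was lost without control library 1 or 2 or treated library 1 or 2. In all other comparisons with ASO-1570 in the cell lines its treated libraries also lay below every control, with differences of -0.441, -0.343 and -0.278 that were not called.

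The following called exons of genes on this list are named after their values were seen. ABI1, a subunit of the WAVE complex that drives actin branching, had a 15-base exon (chr10:26771075-26771089) at 0.131, 0.119 and 0.139 in the U87MG controls and 0.028, 0.023 and 0.019 after 200 nM (limma adjusted p = 0.00379), and it fell by 0.128 at 50 nM (limma adjusted p = 0.0053). The kinase MAP4K4 gained its 9-base exon (chr2:101868029-101868037) from 0.413 ± 0.013 to 0.520 ± 0.027 in U87MG at 200 nM (SD, n = 3; limma adjusted p = 0.0206) and by 0.122 at 50 nM (limma adjusted p = 0.0432). The 24-base exon of CPEB2, a regulator of translation, fell from 0.239, 0.208 and 0.196 to 0.086, 0.091 and 0.087 in U87MG at 50 nM (limma adjusted p = 0.00989). The 12-base exon of the myosin MYO18A rose from 0.542 ± 0.047 to 0.755 ± 0.047 there (SD, n = 3; limma adjusted p = 0.0239), and the 3-base exon of CLASP1 fell from 0.965 ± 0.024 to 0.852 ± 0.017 at 200 nM (SD, n = 3; limma adjusted p = 0.0127). The 27-base exon of PPFIA1, a liprin of cell adhesion sites, rose from 0.029, 0.030 and 0.006 to 0.190, 0.258 and 0.174 in MDA-MB-231 at 200 nM (limma adjusted p = 0.0418).

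PHF21A, a chromatin protein whose neuronal microexon is well studied, and a 24-base exon of CLASP1 were tested in 6 and 7 comparisons without a call. The PHF21A exon had a mean PSI of 0.808 ± 0.198 in the U87MG controls at 200 nM and 0.513 ± 0.464 in those of MDA-MB-231 (SD, n = 3). The CLASP1 exon had a narrow spread and differed by -0.061 at most in the cell lines (U87MG at 200 nM, limma adjusted p = 0.0599).

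Length and reading frame of the called exons were set beside those of the other tested exons, without a test. Of the exons that fell in U87MG at 200 nM, 52 of 83 (62.7%) and 19 of the 31 rising ones (61.3%) had a length that is a multiple of 3, against 58.8% of those not called. The share at 50 nM was 69.4% of the falling and 58.9% of the exons not called. By length, 19.3% of exons of 3 to 15 bases, 15.4% of 16 to 24 bases and 21.4% of 25 to 30 bases were called in U87MG at 200 nM. Over all lengths the share was 18.9%. Just inside the limit of 30 bases (28 to 30) 39 of 230 events (17%) were called in U87MG at 200 nM, and just outside it (31 to 33) 60 of 308 (19.5%). At 50 nM these were 19 of 188 (10.1%) inside and 42 of 236 (17.8%) outside, and in MDA-MB-231 at 200 nM 3 of 197 (1.52%) and 6 of 251 (2.39%), with no test of the difference.

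The direction of the calls differed with the starting level. In U87MG at 200 nM, 58 of 304 exons with a control PSI above 0.8 fell and 0 rose by the limma call, while 12 of 129 with a control PSI below 0.2 rose and 2 fell. Between these levels 19 of 171 rose and 23 fell. An exon above 0.9 in the controls has no room to rise by the 0.10 that a call needs, and one below 0.1 none to fall, so part of this is set by the scale. The same counts were not made over all splicing events, so nothing particular to microexons can be read from them.

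GAA, the core of the sequences that TRA2 proteins bind, was searched on the transcribed strand within the exon, together with AGAA, which contains it. GAA occurred in 47.0% and AGAA in 19.7% of the 1608 microexons with a sequence. GAA in U87MG at 200 nM was in 50 of 83 falling exons (60.2%), in 46.7% of the rising ones and in 44.8% of those not called, and AGAA was in 28.9%, 16.7% and 20.3%. At 50 nM the shares for GAA were 45.9% of the falling exons and 47.7% of those not called, and for AGAA 23.0% and 21.0%, so the difference seen at 200 nM did not recur. A match is only a string of letters, and no binding was measured.

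Known regulators of microexons and SR or SR-like proteins were followed at the gene level as a list of 43 genes. Of 41 tested members, U87MG at 200 nM had 14 that rose and 9 that fell (edgeR adjusted p below 0.05), where 25.8% of all genes were higher and 23.9% lower. For MDA-MB-231 4 rose and 10 fell (11.7% and 13.6% of all genes), and without control library 1 or 2 the 14 calls became 9 or 7. The 50 nM counts were 16 higher and 12 lower of 40 in U87MG (27.9% and 26.7% of all genes) and 4 and 11 in MDA-MB-231 (10.1% and 13.2%), where the 15 calls were 9 without control library 1 or 2 or without treated library 1 or 2. With siRNA 5 rose and 3 fell of 38 in MDA-MB-231 (3.65% and 3.6%) and 4 and 4 in U87MG (1.6% and 2.6%), 4 in all without control library 1 and 5 without treated library 3. In the PDX 0 of 37 were called by edgeR, as were 0% of all genes, and 0 by DESeq2. At an unadjusted edgeR p below 0.05 there were 4, a count not made over all genes.

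QKI, an RNA-binding protein that acts on many short exons, fell with ASO-1570 in both lines and was not called with siRNA. At 200 nM its level was 109, 124 and 91.7 CPM in the MDA-MB-231 controls and 45.4, 26.7 and 52.9 after treatment (log2 change -1.38, edgeR adjusted p = 0.000457). In U87MG it was 145, 150 and 146, then 73.7, 63.6 and 68.8 CPM (log2 change -1.10, edgeR adjusted p = 0.000511). With siRNA the means were 165 and 181 CPM in MDA-MB-231 and 268 and 270 in U87MG (edgeR adjusted p = 0.0975 and 0.963).

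PTBP2, the neuronal relative of PTBP1 and a repressor of neuronal exons, rose with ASO-1570 in both lines. At 200 nM it went from 12.2, 12.1 and 10.1 to 18.6, 14.5 and 15 CPM in MDA-MB-231 (edgeR adjusted p = 0.0137). The U87MG libraries went from 8.66, 9.11 and 9.08 to 17.9, 23.6 and 20.7 CPM in U87MG (edgeR adjusted p = 9.45e-06). With siRNA the log2 changes were 0.19 and 0.18 and not called (edgeR adjusted p = 0.0778 and 0.133). In the PDX the means of PTBP2 were 16.9 and 12.1 CPM and those of QKI 31.6 and 25 CPM, not called (edgeR adjusted p = 0.487 and 0.561). PTBP1 rose from 330 to 423 CPM in U87MG at 200 nM (edgeR adjusted p = 0.00129) and was not called in MDA-MB-231, at 466 and 440 CPM (edgeR adjusted p = 0.441).

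TRA2A, the paralogue, rose in all 6 cell line comparisons. With the oligonucleotide at 200 nM its means were 71.6 and 112 CPM in MDA-MB-231 (edgeR adjusted p = 3.34e-05) and 43.0 and 118 CPM in U87MG (edgeR adjusted p = 7.44e-08). With siRNA they were 91.1 and 189 CPM in MDA-MB-231 and 55.8 and 163 CPM in U87MG (edgeR adjusted p = 2.1e-07 and 3.08e-09). SRRM4, the neuronal activator of microexons, which no comparison called, had 0 to 10 counts in each library of the series. SRRM3 was low and fell at 200 nM, with means of 2.55 and 1.63 CPM in MDA-MB-231 (edgeR adjusted p = 0.0115) and 0.608 and 0.292 CPM in U87MG (edgeR adjusted p = 0.00025). How far any of these levels bears on the exons was not tested.

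**Figure D5:**
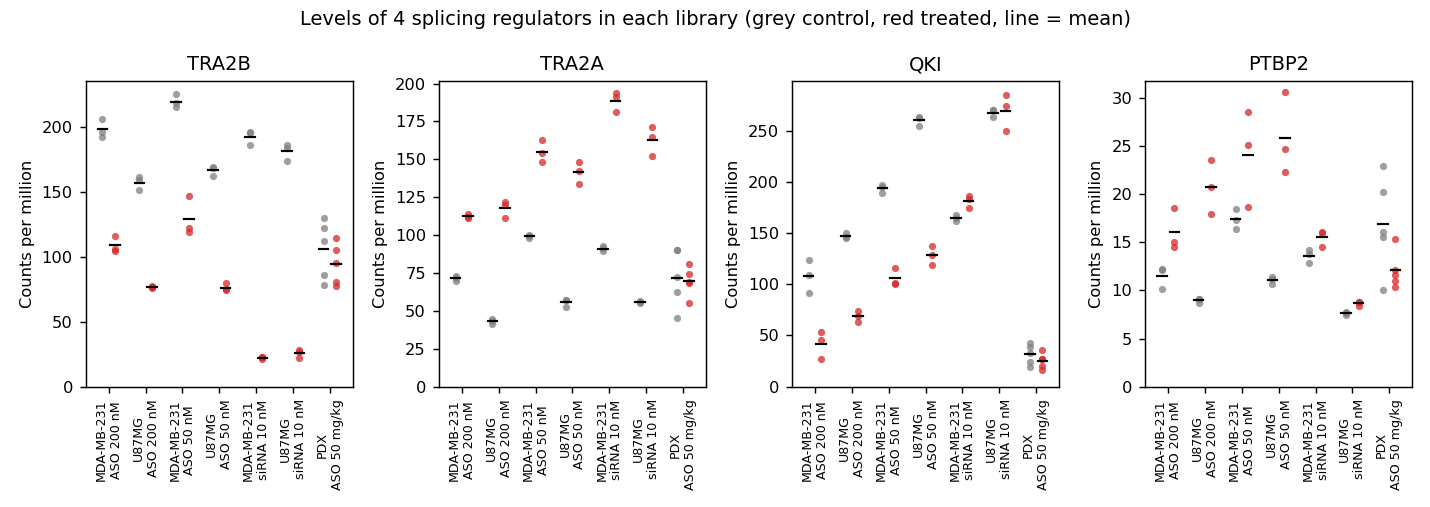
Level in CPM (vertical axis) of TRA2B, TRA2A, QKI and PTBP2 in each library, control in grey and treated in red with a line at the mean, for the 7 comparisons (horizontal axis). TRA2B is lowest with siRNA, at 22.2 and 25.5 CPM, while in the cell lines QKI is lower and PTBP2 higher with ASO-1570. With siRNA neither was called, and in the PDX the groups of both overlap.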

How the data were processed

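The authors deposited PSI as a fraction between 0 and 1 for every splicing event, and the file names give rMATS as the source without its version. The deposited gene tables hold raw counts per Ensembl gene and library. The tools named per the submitters' processing notes are Trimmomatic, STAR, StringTie, FastQC and MultiQC, with GRCh38 (hg38) as the build, and no versions are stated. Whether counting used strand, and how mouse reads of the PDX were treated, is not given in the sources used here. The labels describe a stranded mRNA kit read as pairs of 151 bases. The deposited fractions come without read counts, so the depth behind a PSI is unknown, no interval is given, and a PSI of 0 or 1 may rest on few reads. Second copies of the 200 nM tables were identical to them and were not used. The siRNA columns carry a suffix on the sample titles and were matched by title.

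PSI was tested with limma 3.58.1 (trend) in R 4.3.3 on the 2 groups compared, over all event types whose PSI was complete in both groups and ranged over 0.05 or more, with Benjamini-Hochberg adjustment. Events were called at adjusted p below 0.05 and a difference of at least 0.10. Differences between the lines were tested as an interaction over all 4 groups of a table. For single exons the exact two-sided permutation p is given, which cannot go below 0.1 for 3 against 3 and 0.00794 for 5 against 5. Gene counts were tested with edgeR 4.0.16 (filterByExpr, TMM, quasi-likelihood, all groups of a table), and CPM were computed from the counts. DESeq2 1.42.0 served as an alternative. Both procedures were tested on simulated data.

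An exon is shown by its event tested in the most comparisons, ties by the shortest span between the flanking exons. The exons named are the 5 called in each direction with the largest difference in each comparison, up to 15 of those called the same way in 2 or more comparisons, up to 5 called for a line difference per experiment, and up to 6 tested exons of the known hosts, and 2 of the exons so chosen are not reported here. The members and lists were chosen with earlier results of these data known. Annotation and sequences are from GENCODE 29. The labels do not say that replicates are separate cultures, so p-values measure only the spread between these samples. The replicate numbers of the cell line samples do not pair them: same-numbered libraries of a comparison deviated together with a correlation of -0.009 to 0.027. Alternatives were another filter, a required difference of 0.05, the logit scale and cassette events only. Further ones were all groups in 1 fit, the replicate number as a block, DESeq2, and each library left out in turn.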

Additional observations from a re-analysis of the deposited data

Results flagged for a closer look

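Among the named exons tested in the PDX, 5 of 29 groups of 5 tumours held 1 tumour far from the others, leaving out groups with no spread. The rule used flags about 1 in 20 groups of normally distributed values, which PSI values are not. It flags any single departure from tied values, as for GRIPAP1 and NBEA below. In control tumours these were a PSI of 0.555 for PTPRS beside 0.808 to 0.898 and of 0.935 for GRIPAP1 beside 1. In treated tumours they were 0.557 for NBEA beside 0, 0.969 for PTPRS beside 0.816 to 0.855, and 0.791 for MYO6 beside 0.912 to 0.953.

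For the following exons the effect in MDA-MB-231 differed from that in U87MG by the limma interaction, given as the first minus the second. At 200 nM the values were 0.446 for ABLIM3, -0.121 for AFDN, 0.123 for CD47, 0.479 for CHI3L2, -0.21 for DHX30, -0.143 for DNM2, -0.737 for GPATCH8, 0.282 for NAA20, 0.39 for OTUD4 and 0.285 for TAF1D, with adjusted p from 0.000669 for ABLIM3 to 0.0426 for AFDN. At 50 nM they were 0.431 for ABLIM3, -0.297 for DHX30, -0.156 for DNM2, 0.26 for GRIPAP1, 0.396 for KIFC3, 0.278 for NAA20, 0.388 for SMARCB1 and 0.304 for TAF1D, with adjusted p from 0.00197 for ABLIM3 to 0.0483 for KIFC3. ABLIM3, DHX30, DNM2, NAA20 and TAF1D appear at both doses with the same sign. The line difference at 50 nM was not called for GPATCH8 (0.18, limma interaction, adjusted p = 0.653) or CHI3L2 (0.06, adjusted p = 0.858).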

How the results depend on the processing

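The number of called microexon events in MDA-MB-231 at 200 nM was 25 and became 11 with no filter on the range, 42 on the logit scale, 7 with cassette events only, 46 with all 4 groups in the fit and 3 to 40 when single libraries were left out. At 50 nM it was 4 and became 0, 12, 1 and 22 under the same 4 settings in that order, 8 with values required in only 2 libraries of each group, and 0 to 17 with single libraries left out. In U87MG it was 160 at 200 nM, with 112 to 168 when libraries were left out, and 103 at 50 nM, with 44 to 123. With siRNA the 0 calls became 3 in MDA-MB-231 and 4 in U87MG with all 4 groups in the fit, 2 in U87MG with values in 2 libraries of each group, and 0 to 1 when libraries were left out. In the PDX they stayed at 0 under each setting. The 67 line differences at 200 nM became 43 to 84 and the 32 at 50 nM 13 to 62 when libraries were left out, the 32 became 16 on the logit scale, and the 0 with siRNA became 0 to 1. The calls of the splicing factor list when libraries were left out were 7 to 16 in MDA-MB-231 at 200 nM, 9 to 11 there at 50 nM and 4 to 7 in U87MG with siRNA. Apart from fewer libraries where they were left out, the cause was not tested.

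With the replicate number as a block, which the correlations do not support as a pairing, the calls were 0 in MDA-MB-231 and 100 in U87MG at 200 nM, 0 and 40 at 50 nM, and 0 with siRNA and in the PDX. The line differences were 54, 23 and 0 in the 200 nM, 50 nM and siRNA experiments. In MDA-MB-231 the block cost the AFDN and MARK3 calls too. Same-numbered tumours of the PDX correlated from -0.174 to 0.137.

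Of 840 alternative values for the 65 calls of named exons, 670 kept the call, 170 lost it and 0 changed sign. No read counts come with the PSI values, so the depth behind a call is unknown.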
